A study of Caenorhabditis elegans with 2 samples.

Results

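The proteasome subunit genes of Caenorhabditis elegans were examined for regions enriched when tagged MES-2 was precipitated. The members were the 33 protein-coding genes whose symbols begin with pas-, pbs-, rpt- or rpn-, out of 19973 protein-coding genes on the nuclear chromosomes of the WBcel235 annotation, the assembly that ce11 corresponds to. They comprised 14 core particle genes (7 of the alpha ring and 7 of the beta ring) and 19 regulatory particle genes (10 of the base and 9 of the lid). The rule that picks the members uses gene symbols and no signal value.

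The assay was chromatin immunoprecipitation followed by sequencing on whole hermaphrodites of strain OP248 at the L4 larval stage, of unknown age per the labels. All worms carried a transgenic MES-2 with GFP and FLAG at its C-terminus, precipitated with an antibody against GFP after sonication. The 2 samples were biological replicates 1 and 2 of 1 group. The labels give neither the promoter of the transgene nor the state of the native mes-2 gene, and whole animals mix all tissues.

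The proteasome degrades ubiquitin-tagged proteins in every tissue. Its core particle stacks rings of alpha subunits, which gate entry, around rings of beta subunits, some of which carry the proteolytic sites; the regulatory particle unfolds substrates with a base of ATPases and holds ubiquitin receptors and a deubiquitinase. MES-2, related to Enhancer of zeste of Drosophila, is the histone H3 lysine methyltransferase of Polycomb repressive complex 2, known for gene repression in the germ line and early embryo.

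Peak lists with 1 summit per region were analysed, and the authors' signal value, whose scale is not stated, was used to rank regions within a list. The list that the authors thresholded for reproducibility had 5501 regions with signals of 73.5 to 2503 and a median of 140. Each unthresholded list, from replicate 1, replicate 2 and the pooled replicates, held 30000 regions. The label of the pooled list says that it holds peaks and background. A weak region in an unthresholded list may therefore be background and need not be a peak. Read counts are not part of these lists, so the depth is unknown and a missing summit can reflect depth. Control reads were not analysed here, and binding by MES-2 and signal that any precipitation gives at these starts cannot be told apart. A gene was called bound when a summit lay within 500 bp of an annotated start of that gene, and "upstream" is along the gene's strand. Where several summits qualified, the strongest was taken.

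Sequences are shown for 7 bound summits and 2 unbound starts, so that the runs with marked letters can be set beside those without. Each run is 101 bases on the gene's strand, 5′ to 3′, read from the RefSeq sequence of WBcel235. Capitals mark TGTCAT or TATCAT, the letters of a site type bound by SKN-1, the transcription factor that raises proteasome gene expression in worms, and GCGAGACC, a run picked after the sequences had been seen; both were searched on both strands, so ATGACA is TGTCAT on the other strand. Of 12 members' summit windows of this length that touch no exon and could be printed, 5 hold marked letters and 7 do not; all 5 with them are shown, and the 2 of the 7 with the highest signals, so the shown runs are not typical of the members. The first 5 are the marked ones, centred on summits: rpn-12 (chrII:11652942-11653042, plus strand), rpn-3 (chrIII:8447111-8447211, plus strand), rpn-6.1 (chrIII:6961306-6961406, minus strand), rpt-4 (chrII:43775-43875, minus strand) and rpn-2 (chrIII:6198791-6198891, plus strand). The next 2, also centred on summits, are rpn-9 (chrII:11239114-11239214, minus strand) and rpt-6 (chrIII:12370159-12370259, plus strand), with no marked letters. A wider window of 201 bases around the rpt-6 summit does hold TGTCAT or TATCAT, and that of rpn-9 does not. The last 2 end 1 base before the starts of pas-2 (chrV:10770267-10770367, plus strand) and rpt-3 (chrIII:6489692-6489792, plus strand), which had no summit within 500 bp. The first 2 hold GCGAGACC, 4 of the 5 marked summits hold TGTCAT within the longer run ATTGTCAT, and the 101 bases before the 2 unbound starts hold no marked letters.
rpn-12: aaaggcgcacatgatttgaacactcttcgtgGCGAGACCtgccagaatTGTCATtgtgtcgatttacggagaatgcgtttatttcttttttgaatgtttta
rpn-3: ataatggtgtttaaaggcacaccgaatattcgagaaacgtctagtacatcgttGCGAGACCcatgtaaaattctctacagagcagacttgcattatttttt
rpn-6.1: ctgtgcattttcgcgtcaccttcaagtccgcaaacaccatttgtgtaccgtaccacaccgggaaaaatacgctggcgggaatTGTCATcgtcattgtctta
rpt-4: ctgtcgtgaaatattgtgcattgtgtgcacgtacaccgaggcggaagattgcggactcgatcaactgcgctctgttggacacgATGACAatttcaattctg
rpn-2: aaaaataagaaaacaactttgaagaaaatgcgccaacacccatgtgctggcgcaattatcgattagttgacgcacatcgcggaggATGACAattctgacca
rpn-9: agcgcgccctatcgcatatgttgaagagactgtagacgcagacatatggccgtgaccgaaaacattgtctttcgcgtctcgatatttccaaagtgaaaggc
rpt-6: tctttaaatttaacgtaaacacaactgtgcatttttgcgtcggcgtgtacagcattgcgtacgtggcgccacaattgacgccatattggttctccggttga
pas-2: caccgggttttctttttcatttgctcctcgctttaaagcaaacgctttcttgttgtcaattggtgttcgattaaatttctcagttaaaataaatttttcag
rpt-3: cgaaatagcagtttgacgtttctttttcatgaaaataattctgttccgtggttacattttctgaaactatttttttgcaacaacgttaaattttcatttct

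Most proteasome genes of both particles had a summit at their start. In the thresholded list 26 of 33 members were bound (78.8%), against 16.6% of all protein-coding genes. Core and regulatory particle genes had like shares, at 11 of 14 (78.6%) and 15 of 19 (78.9%). By subcomplex, 5 of 7 alpha ring genes, 6 of 7 beta ring genes, 7 of 10 base genes and 8 of 9 lid genes were bound. No test was made of these counts, because genes of 1 complex are not replicates of a condition.

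The unthresholded lists placed summits at nearly all members, but at many other genes too. Counting all regions, 30 of 33 members had a summit in the pooled list (34.0% of all protein-coding genes), 30 in replicate 1 (35.7%) and 31 in replicate 2 (35.8%). Among the strongest 5501 regions of each replicate, 24 members had a summit in replicate 1 (72.7%, against 16.1% of all protein-coding genes) and 27 in replicate 2 (81.8%, against 17.1%). A summit among the strongest 5501 of both replicates was found at 24 members, against 13.5% of all protein-coding genes. Core particle genes numbered 11 of 14 in either replicate, whereas regulatory particle genes numbered 13 of 19 in replicate 1 and 16 of 19 in replicate 2. A window of 250 bp held 18 members (54.5%, against 11.3% of all genes), and a window of 1000 bp held 27 (81.8%, against 20.6%).

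**Figure D1:**
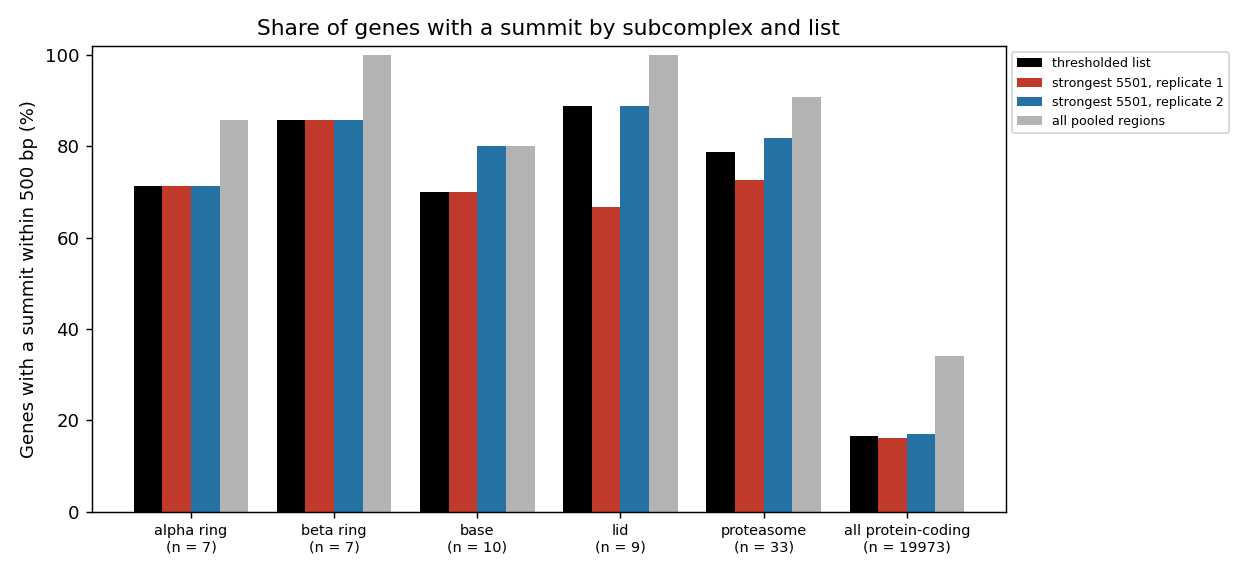
Share of genes (%) with a summit within 500 bp of a start, for the 4 subcomplexes, all 33 proteasome genes and all 19973 protein-coding genes, in the thresholded list, the strongest 5501 regions of each replicate and all pooled regions. Each subcomplex stands above all protein-coding genes in every list, and the lid bar for replicate 1 (66.7%) is lower than that for replicate 2 (88.9%).

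Signals at bound members varied widely. The median signal of the 26 members was 268, with a range of 110 to 635.4, against a median of 207 and a range of 73.59 to 2503 for all bound genes. As a percentile within the thresholded list, where 100 is the strongest peak, the median was 77.3 for proteasome genes and 67.6 for all bound genes. A percentile over 75 was reached by 14 of the 26 (53.8%), against 40.7% of all bound genes. Core particle genes had a median signal of 226 and a range of 110 to 635.4; regulatory particle genes had a median of 280 and a range of 115.5 to 625.7. The ranges of the particles overlapped almost completely. Medians by subcomplex were 226 for the alpha ring, 243 for the beta ring, 280 for the base and 286 for the lid. All 26 carried the highest −log10 q-value in the list, 3.91, so that column did not separate them.

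**Figure D2:**
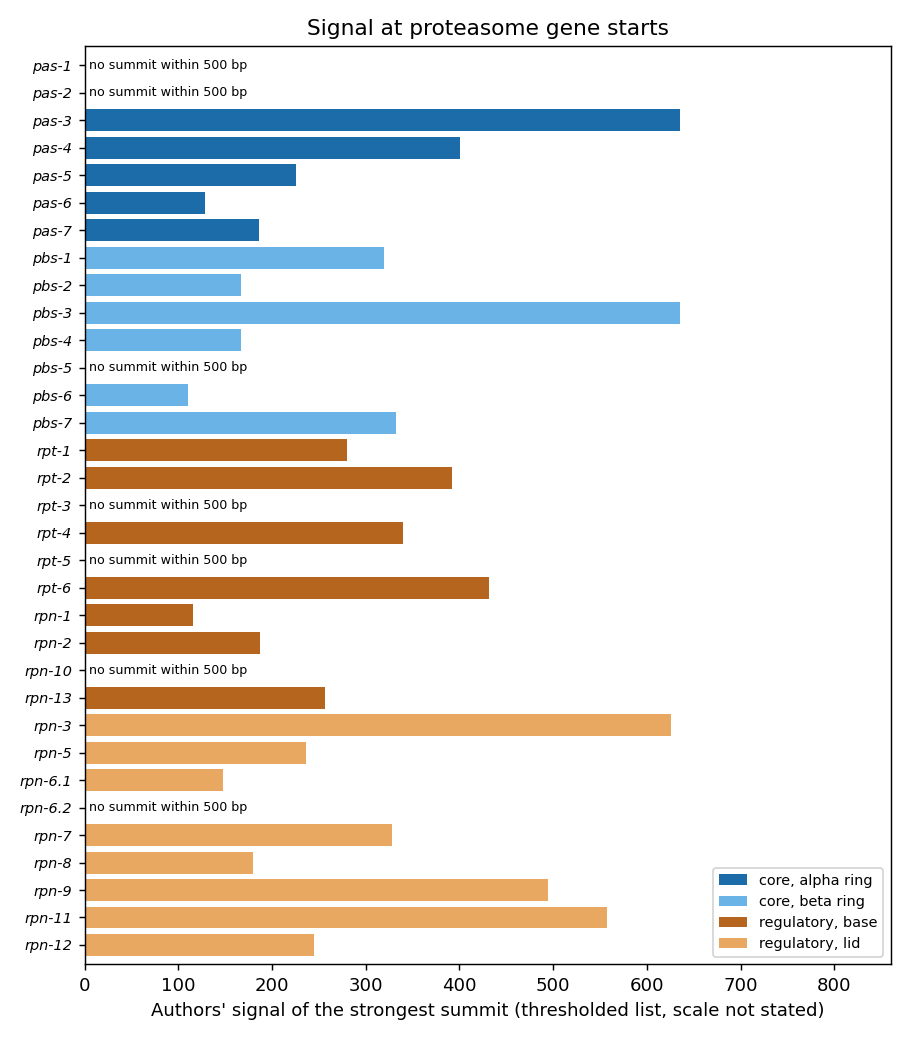
Authors' signal of the strongest thresholded summit within 500 bp of each of the 33 proteasome gene starts, coloured by subcomplex, with bars from 0. The longest bars, pas-3, pbs-3 and rpn-3, lie in the alpha ring, the beta ring and the lid, and 7 genes have no summit.

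In the alpha ring, pas-3 had the highest signal of all members, 635.4, at rank 291 of 5501. Its summit, at base 5106205 of chromosome I, lay 157 bp upstream of its start, inside an untranslated exon of the divergent gene use-1, which encodes a SNARE protein. The replicates gave signals of 359.6 (rank 265) in replicate 1 and 284.2 (rank 330) in replicate 2. Both replicates placed it among their strongest regions. It was followed in the ring by pas-4 (signal 401.1, rank 664), pas-5 (225.8, rank 1598) and pas-7 (186.6, rank 2010). pas-4, 147 bp from its summit, had 136.4 in replicate 1 and 227.0 in replicate 2. pas-5 (318 bp) had 105.5 and 103.2 in replicates 1 and 2, and pas-7 (255 bp) had 81.22 and 107.0. By rank, pas-4 (1289 in replicate 1 and 512 in replicate 2) and pas-7 (2405 and 1725) stood better in replicate 2. The ranks of pas-5 (1777 and 1818) differed little. pas-6 had a signal of 128.1, at rank 3025, the third lowest of the bound members. Its summit, at base 5584584 of chromosome V, lay 241 bp upstream of its start, with signals of 49.17 (rank 3995) in replicate 1 and 57.33 (rank 3590) in replicate 2. The alpha ring thus held both the member with the highest signal and one of the 3 with the lowest.

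In the beta ring, pbs-3 nearly matched pas-3, with a signal of 635.0 at rank 292. Its summit, at base 4955564 of chromosome II, lay 137 bp upstream, in an untranslated exon of the neighbouring gene ulp-2, a SUMO protease gene, and ranked 246 in replicate 1 (signal 379.6) and 369 in replicate 2 (265.7). pbs-6 had the lowest signal of all bound members, 110.0, at rank 3526. It lay 169 bp upstream, at base 8244261 of chromosome III, with signals of 38.78 (rank 5210) in replicate 1 and 50.93 (rank 4054) in replicate 2. Genes named for the beta subunits that are catalytic in yeast were split: pbs-1 had a signal of 319.5 and pbs-2 of 167.0, while pbs-5 was unbound. In replicates 1 and 2, pbs-1 (208 bp upstream) had 120.5 and 206.7, and pbs-2 (332 bp) had 40.8 and 100.5. pbs-7 (332.6) and pbs-4 (167.3) completed the ring. They went opposite ways between replicates, with 121.7 in replicate 1 and 190.3 in replicate 2 for pbs-7 (126 bp), and 95.91 and 58.34 for pbs-4 (141 bp).

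In the base, the ATPase genes rpt-6 (431.6), rpt-2 (392.5), rpt-4 (340.2) and rpt-1 (279.6) were bound, and rpt-3 and rpt-5 were not. Signals in replicates 1 and 2 were 166.9 and 247.2 for rpt-6 (247 bp upstream), 180.5 and 190.3 for rpt-2 (146 bp), 131.1 and 185.3 for rpt-4 (163 bp), and 112.7 and 139.5 for rpt-1 (106 bp). All 4 were higher in replicate 2, though the scales of the lists were not shown to be equal. The scaffold genes rpn-2 (187.6) and rpn-1 (115.5) had lower signals than these 4 ATPase genes. The summit of rpn-1, at base 6910275 of chromosome IV, lay 362 bp upstream at rank 3371, the second lowest of the bound members, with signals of 42.42 (rank 4686) in replicate 1 and 71.28 (rank 2844) in replicate 2. rpn-2, 343 bp from its summit, had 81.11 in replicate 1 and 108.2 in replicate 2. Of the ubiquitin receptor genes, rpn-13 had a signal of 256.8, with 91.79 in replicate 1 and 114.1 in replicate 2 at 313 bp upstream, and rpn-10 was unbound.

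The lid consists largely of scaffold subunits with a PCI domain, RPN-3 among them, around the deubiquitinase RPN-11. rpn-3 had a signal of 625.7 at rank 305, the third highest of the members. Its summit, at base 8447161 of chromosome III, lay 192 bp upstream, between rpn-3 and the divergent chaperone gene hsp-110, and had signals of 229.1 (rank 579) in replicate 1 and 333.9 (rank 216) in replicate 2. The deubiquitinase gene rpn-11 followed with 557.9 (295.1 in replicate 1 and 241.3 in replicate 2) and the scaffold gene rpn-9 with 494.7 (267.3 and 232.0). These were 2 of the 6 members that ranked better in replicate 1. rpn-8, whose product pairs with RPN-11, had a signal of 179.8. The remaining bound lid genes were rpn-7 (327.9), rpn-12 (244.8), rpn-5 (235.8) and rpn-6.1 (147.6), the last known in worms for raising proteasome activity when overexpressed. In replicates 1 and 2, rpn-12 (132 bp upstream) had 107.3 and 132.3, rpn-5 had 89.97 and 152.9, and rpn-6.1 had 52.39 and 95.65. rpn-6.1 has 2 annotated starts, and its main summit lay 416 bp upstream of the inner one. A weaker summit, with a signal of 93, lay 960 bp from the main one and 315 bp upstream of the outer start.

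Measured from the nearest annotated start of the gene, the summit of each of the 26 bound members lay upstream, against 87.1% of the summits of all bound genes. The summits of rpt-4 and rpn-6.1, genes with 2 starts, lay in the gene's own intron, 2391 bp and 645 bp downstream of its outermost start. With outermost starts only, rpt-4 was not bound and 25 members were. The median distance was 200 bp, within a range of 11 to 416 bp, against a median distance of 177 bp for all bound genes. As a position along the strand, the median for all bound genes was 159 bp upstream. Between 100 and 400 bp upstream lay 23 of 26 summits (88.5%), against 60.5% for all bound genes. The 3 others were those of rpn-11 at 11 bp, rpn-5 at 35 bp and rpn-6.1 at 416 bp. That span was not a planned measure and lies close to the members' own spread, so no conclusion is drawn from the higher share. Core particle summits lay 126 to 332 bp upstream with a median of 169 bp, and regulatory particle summits 11 to 416 bp with a median of 245 bp. The positions of the particles therefore overlapped, and the core genes had the narrower range.

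**Figure D3:**
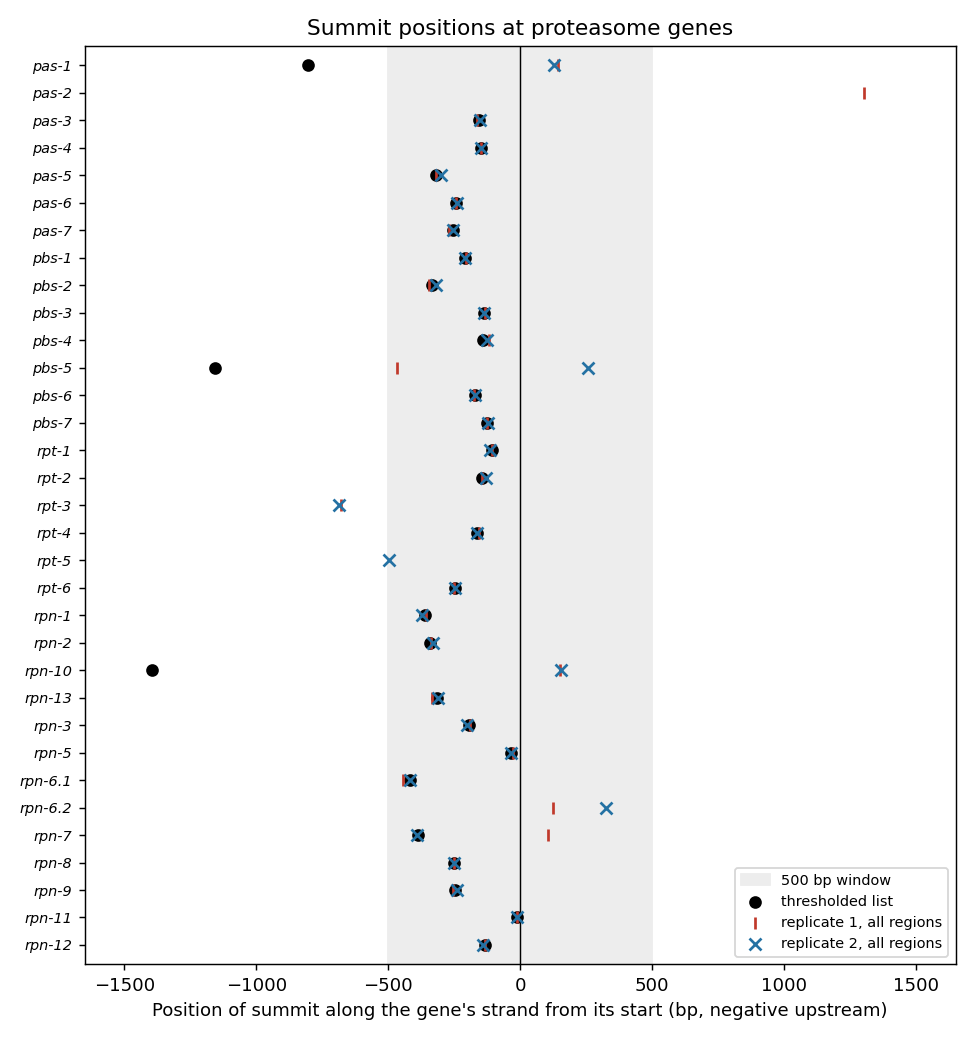
Position of the summit (bp along the gene's strand, 0 at the nearest annotated start of the gene, negative upstream) for each proteasome gene in the thresholded list and in all regions of replicates 1 and 2. The strongest summit within 500 bp (grey band) is drawn, or else the nearest one, and those beyond the axis are left out. Black points in the band all lie left of 0, and for 25 genes both replicate marks lie near the black point.

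Most summits sat between genes, and most lay near the start of a divergent gene too. Intergenic sequence held 22 of 26 (84.6%), against 75.1% of the summits of all bound genes. Of the other 4, those of pas-3 and pbs-3 lay in untranslated exons and those of rpt-4 and rpn-6.1 in introns. The same summit lay within 500 bp of another gene's start for 17 of 26 members (65.4%), against 38.4% of all bound genes, and all 17 partners were on the opposite strand. Core particle genes contributed 7 and regulatory particle genes 10. No summit was shared by 2 members.

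The partners have varied roles. pas-4 shared its summit with rpb-3, an RNA polymerase II subunit gene, whose start was 130 bp away. pbs-2 shared with the ribosome biogenesis gene eif-6 (334 bp), rpt-2 with the clathrin adaptor gene aps-1 (155 bp) and rpn-5 with the cohesin gene scc-1 (259 bp). rpn-12 shared its summit with rad-23 (263 bp), which carries ubiquitinated proteins to the proteasome. The summit of pas-3 lay 1 bp from the start of use-1. At these 17 starts, signal at the member and signal at its partner cannot be told apart.

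The replicates placed their summits at nearly the same bases. Within 100 bp of the thresholded summit, 25 of 26 members had a region in both replicates. This was near the share for the summits of all bound genes (93.6%) and for all thresholded peaks (92.2%). The list was thresholded for reproducibility, so such agreement may have been partly selected for. Whether that threshold compared the replicates themselves is not given in the sources used here. Between replicates the summits of these 25 were a median of 9 bp and at most 29 bp apart, and 22 lay within 20 bp. These distances were not measured for all bound genes. Ranks ran between 246 and 6037 in replicate 1 and between 216 and 4054 in replicate 2. The rank was better in replicate 2 for 19 of 25 members (76.0%), against 56.1% of the summits of all bound genes.

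rpn-7, a lid gene, was the exception to the matched summits. Its thresholded summit, 386 bp upstream with a signal of 327.9 at rank 928, had a region of signal 180.8 at rank 781 in replicate 2, but none within 100 bp in replicate 1. Replicate 1 had a region 104 bp downstream of the start, at rank 23188. rpn-8 ranked 6037 in replicate 1 (signal 34.28) and 2045 in replicate 2 (94.77), and was outside the strongest 5501 regions in replicate 1. pbs-2 ranked 4898 in replicate 1 and 1892 in replicate 2. With 2 replicates and no counts, no test of these differences was made.

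**Figure D4:**
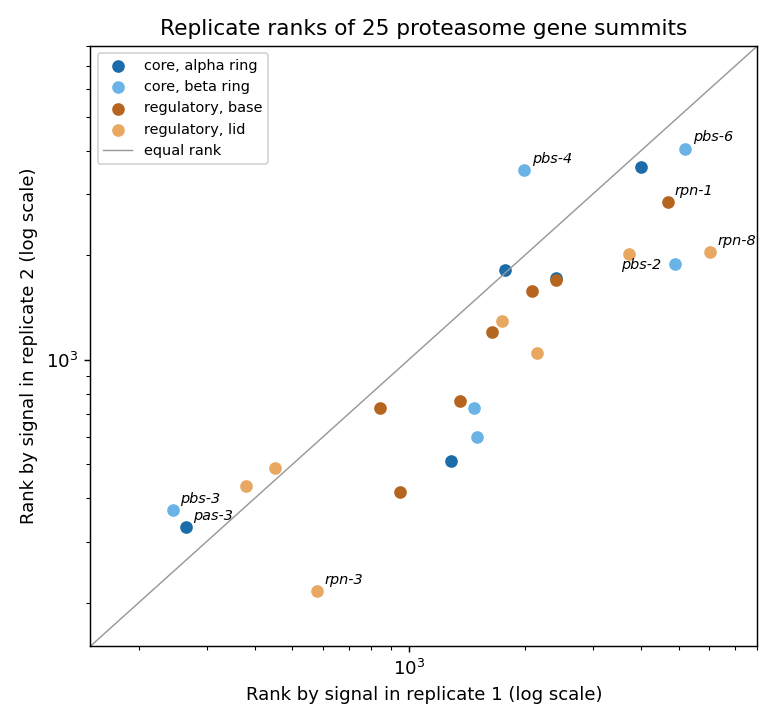
Rank by signal (1 is strongest, log axes) in replicates 1 and 2 of the 25 proteasome gene summits with a region within 100 bp in both, coloured by subcomplex, with a line of equal rank. Most points (19) lie under the line, where the rank is better in replicate 2, and rpn-8 is the point farthest right.

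The 7 unbound members were pas-1, pas-2 and pbs-5 of the core particle and rpt-3, rpt-5, rpn-10 and rpn-6.2 of the regulatory particle. For 3 of them, the nearest thresholded summit lay upstream of a gene that ends shortly before the member starts on the same strand, an arrangement found in worm operons, whose genes are transcribed together from an upstream promoter. pas-1 began 106 bp after rpoa-12, and the nearest summit (signal 264.4, rank 1275) was 805 bp upstream of pas-1 and 119 bp upstream of the rpoa-12 start. pbs-5 began 110 bp after K05C4.2, and the nearest summit (731.7, rank 227) was 1156 bp upstream of pbs-5 and 278 bp upstream of K05C4.2. rpn-10 began 118 bp after mrpl-9, and its nearest summit (204.2, rank 1820) was 1394 bp upstream and 152 bp upstream of mrpl-9. rpn-6.2 had the shortest spacing of the unbound members, 54 bp after F59B2.15, but its nearest thresholded summit was 4725 bp upstream of the F59B2.15 start. Operon membership itself was not checked here.

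The weaker regions at these 3 starts were not in the thresholded list. The pooled signal within 500 bp was 65.67 for pas-1 (rank 6290), 63.98 for pbs-5 (rank 6512) and 60.10 for rpn-10 (rank 7094). The lowest thresholded signal was 73.5. pas-1 had regions 145 bp downstream in replicate 1 (signal 12.00, rank 22181 of 30000) and 127 bp downstream in replicate 2 (10.96, rank 26227 of 30000). Regions of such low rank may be background. pbs-5 had a region 466 bp upstream in replicate 1 (28.62, rank 7635) and 257 bp downstream in replicate 2 (30.57, rank 7445), so its replicates disagreed on position. rpn-10 had regions 152 bp downstream in replicate 1 (13.97, rank 19022) and 157 bp downstream in replicate 2 (25.82, rank 9216).

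For rpt-3, a base ATPase gene, both replicates showed a region outside the window that the pooled list lacked. It lay 677 bp upstream in replicate 1 (signal 131.6, rank 1352) and 686 bp upstream in replicate 2 (151.7, rank 1057), in an untranslated exon of chtb-2, which ends 478 bp before rpt-3. The nearest region of the pooled and thresholded lists was 25339 bp away. Of the 3622 regions found among the strongest 5501 of both replicates within 100 bp, 130 (3.59%) likewise had no pooled region within 100 bp. At rpt-5, another ATPase gene, replicate 2 had a region 498 bp upstream, just inside the window (92.28, rank 2104), while the nearest of replicate 1 was 18882 bp away (55.88). The nearest thresholded summit to rpt-5 was 36566 bp away.

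The last 2 unbound members had little signal nearby in any list. rpn-6.2, a second gene named for the RPN-6 subunit, had weak regions within 500 bp, with signals of 27.99 in the pooled list, 15.99 in replicate 1 and 16.67 in replicate 2, and its nearest thresholded summit was 5371 bp away. pas-2 had no region within 500 bp in any list. The nearest to pas-2 were 1302 bp away in replicate 1 (28.09), 2629 bp away in replicate 2 (17.01), 2246 bp away in the pooled list (39.10) and 33426 bp away in the thresholded list. Other members were therefore either bound or had a region within 500 bp in at least 1 replicate, except rpt-3, whose regions lay outside the window. The weak regions among these may be background.

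Members that began close to the end of an upstream same-strand gene were bound less often, though only 8 members did so and there were exceptions. Of the 8 members that began within 500 bp of the end of a same-strand gene, 3 were bound (37.5%), namely pbs-3, rpn-11 and rpn-13. The shortest spacing of all members was that of pbs-3, 22 bp after ulp-2. It was nevertheless bound, with a signal of 635.0 at 137 bp upstream of its own start and 1547 bp from the ulp-2 start. Of the 25 others, 23 were bound (92.0%). Among all protein-coding genes, 13.9% of those with such a close neighbour and 17.3% of the others were bound. rpt-1, with a spacing of 503 bp, was the bound member just past the limit and rpt-3, with 478 bp, the unbound member just inside it. When the start of a close upstream neighbour was counted as well, which was decided after the values had been seen, 29 of 33 members were bound, against 20.8% of all genes.

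The windows around members' summits had a low median content of G and C. Over 201 bases it was 36.1% for the 26 members, with a range of 31.8 to 45.3%, against 40.3% for all bound genes and 42.8% for all 5501 summits. TGTCAT or TATCAT occurred in 12 of these 26 windows (46.2%), against 14.7% of those of all bound genes; they included rpt-2, rpt-4, rpt-6, rpn-11 and rpn-12. ATTGTCAT, which contains TGTCAT and was picked after the sequences had been seen, occurred in 7 (26.9%), against 0.936%. GCGAGACC, picked in the same way, occurred in 4 (15.4%), at pas-7, rpn-1, rpn-3 and rpn-12, against 5.56%. For runs picked from members' own sequences an excess in members is partly built in, so no conclusion is drawn from it. The members are also among all bound genes, of which 31 had ATTGTCAT. The E2F-type letters TTTCCCGC or TTTGGCGC occurred in 2 windows (7.69%, against 3.62%), CTGCGTCTC in 1 (3.85%, against 10.4%) and GAGAGAGA in 0 (against 5.89%).

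Promoter windows, from 250 bases before to 50 after each start, gave TGTCAT or TATCAT in 15 of 33 members (45.5%), against 32.3% of all protein-coding genes. ATTGTCAT occurred in 5 (15.2%, against 1.93%), including unbound pas-2 at a base outside the 101 printed, and GCGAGACC in 4 (12.1%, against 1.32%). Both runs were picked after the members' sequences had been seen, so an excess in members was partly built in. The E2F-type letters occurred in 1, rpn-8 (3.03%, against 2.49%), while CTGCGTCTC and GAGAGAGA occurred in 0, against 2.93% and 3.54%. A match is a description of letters and not evidence of a bound factor.

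Genes whose products work with the proteasome were looked at as a separate list. Of 17, 9 were bound (52.9%), against the 16.6% of all protein-coding genes. Among proteins that sit on the particle, the adaptor gene ecps-1 had a signal of 1066, higher than any member, and the deubiquitinase genes ubh-4 and usp-14 had 652.8 and 304.8. Of genes for ubiquitin and its activation, ubq-2 had 543.4, ubq-1 171.0 and uba-1 161.2. rad-23 (244.8) shared the summit of rpn-12, and aip-1 (226.7) and sel-1 (134.6) were bound as well. skn-1, and png-1 and ddi-1, whose products process SKN-1 when the proteasome fails, had no thresholded summit, nor did dss-1, psmd-9, psme-3, sel-11 and ubql-1. Of these 8, ddi-1, dss-1, psmd-9 and psme-3 had no pooled region within 500 bp either, and the pooled signals of the other 4 were 20.33 to 60.09.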

How the data were processed

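Whole-worm chromatin immunoprecipitation of tagged MES-2 was analysed in 2 biological replicates of 1 group. The authors' deposited lists were used on ce11: 2 replicate lists, a pooled list and a list thresholded for reproducibility, called against a control per the submitters' file lists. Separate cultures are not described in the labels. Which aligner, peak caller, versions and reproducibility threshold were used is not given in the sources used here. Per the file layout, the authors' signal column gives 1 value per region, of unstated scale, and the deposited q column gives −log10 q-values. The ce10 lists were not used here.

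Starts came from Ensembl release 115 of WBcel235, and chromosome names and lengths were compared with the files. Every start of a protein-coding gene's transcripts counted. The matching was tested on simulated peaks. No p-value is given, since there is 1 group. Tables were made with Python 3.11.15, pandas 2.3.3, numpy 2.4.6 and matplotlib 3.10.9. Members, lists and measures were chosen with earlier results of these data known. Full values were set for the 3 highest and 3 lowest signals, unbound members, and those where replicates disagreed. Of the alternatives, 1 was added after the data were seen.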

Additional observations from a re-analysis of the deposited data

How the results depend on the processing

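The count of bound proteasome genes, 26 of 33, was between 18 and 30 under other settings (windows of 250 and 1000 bp, the stronger 2750 peaks, pooled regions at −log10 q of at least 2, all pooled regions, the outermost start only, the nearest gene only, and each replicate alone). It was 18 with the 250 bp window, 21 with only the nearest gene, 23 with the stronger peaks and 30 with all pooled regions. In all, 39 of 39 results on counts stayed within 1.5 times, but this limit was weak. Even a count of all 33 members would lie within 1.5 times of 26, and the same holds for each particle. Looser settings could therefore not fail it for these counts, and the fall from 26 to 18 also passed. The 39 include the alternative added after the data were seen. The median percentile of the members' signal, 77.3, was 83.7 with the 250 bp window, 65.0 in the stronger peaks, 91.9 among pooled regions at −log10 q of at least 2 and 95.1 among all pooled regions; a percentile is relative to the list it is taken in. With 1 replicate left out it was between 69.2 and 78.2. The median offset, -200 bp, was -152 bp with the 250 bp window, which leaves out the farther summits, and -180.5 bp with all pooled regions. With 1 replicate left out it was between -183 and -208 bp. No paired analysis was possible because the samples form 1 group. The lists carry no read counts, so how far depth limits the unbound calls cannot be given.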
